A study of Homo sapiens with 3 samples.

Results

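The genes described here are 6 surface and secreted proteins used as markers of human pluripotent stem cells: the sialomucin PODXL, the adhesion glycoprotein EPCAM, the tetraspanin CD9, the cadherin CDH1, the neuropeptide precursor GAL and the receptor kinase KIT. They were chosen by symbol, and 7 of the 33297 probe sets on the array carry one of these symbols, so the set is 6 of 18417 named genes. EPCAM is covered by probe sets 8041853 and 8098439, and the others by 1 probe set each. Both EPCAM probe sets list the same transcripts, but whether both lie within the gene was not checked. EPCAM values are those of 8098439, the brighter, unless the other is named. RNA came from H9, an established line of human embryonic stem cells, grown under pluripotent conditions. The 3 samples are polysome-bound RNA, polysome-unbound RNA and total RNA, each from H9 cells and each hybridised to 1 Affymetrix array. No difference therefore has a replicate check, no p-value is given, and a 2-fold change is used as a line for counting only.

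Polysomes are mRNAs that carry several ribosomes, and a transcript's share in the polysome-bound pool is widely read as a measure of its translation. All 6 mRNAs encode proteins that enter the secretory route, so their ribosomes are held at the endoplasmic reticulum during synthesis. PODXL carries the glycan epitopes by which many antibodies recognise pluripotent cells. EPCAM and CDH1 hold stem cell colonies together as epithelial sheets. CD9 organises membrane microdomains with integrins, GAL is cut into the secreted peptide galanin, and KIT binds stem cell factor.

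The labelled cell type was checked against marker lists. All 11 measured pluripotency markers, among them SOX2, LIN28A and DNMT3B, were above background on each of the 3 arrays. Background is the 95th percentile of 459 genes that are restricted to other tissues (defensins, keratin-associated proteins, and receptors for smell and taste), and lay at a log2 value of 4.39 on the bound, 3.57 on the unbound and 3.76 on the total RNA array. POU5F1 and NANOG were not analysed here. KIT is also made by cells of other lineages: 1 of 6 measured mast cell and blood markers was above background in bound RNA (RUNX1), and 0 were in unbound or total RNA. Of 5 melanocyte markers 2 were above background on every array, PMEL and MITF, and TYR, MLANA and TYRP1 were not. Of 6 germ cell markers 3 were above it on every array, and DDX4, SYCP3 and MAEL were at or below it.

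The 5′ end of an mRNA is a feature through which translation is known to be regulated, since mRNAs that begin with a terminal oligopyrimidine tract leave polysomes together when growth signalling is low. For the annotated starts of CD9 and KIT, the 30 bases around each (RefSeq, GRCh38.p14, plus strand) are shown with the first 5 transcribed bases in capitals.
CD9 chr12:6199931-6199960: gcagaagggcccctcACTCTggcagcaggc
CD9 chr12:6200385-6200414: cggagaccagcctacAGCCGcctgcatctg
CD9 chr12:6200827-6200856: gtgcgggagggtcctGAGCActttagctcg
CD9 chr12:6226124-6226153: gggagagaggcttccAGTTTaaacctgcct
KIT chr4:54657942-54657971: tttgccgcgctcgctGCACTtgggcgagag
None of the 5 starts has a C as its first base followed by 4 bases that are each C or T, read on the transcribed strand only. Of all 35116 annotated starts 4.07% do. Among the genes compared here, the 720 with such a start had a median bound minus unbound difference of -0.41 with the arrays centred on their medians, and the 8992 without one -0.02. Which start H9 cells use is not known from these arrays.

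On the deposited log2 scale, every marker was above background on every array. PODXL had 9.15 in bound, 7.46 in unbound and 9.92 in total RNA. EPCAM had 10.44, 8.15 and 9.60 in bound, unbound and total RNA on its brighter probe set, and 9.86, 7.87 and 8.98 on the other. CD9 had 7.99 in bound RNA, 5.99 in unbound RNA and 8.20 in total RNA. The unbound array was the dimmest of the 3 for each of these genes, and total RNA was the brightest for PODXL and CD9 but not for EPCAM. CDH1 had 8.92 in bound, 7.35 in unbound and 8.49 in total RNA. KIT had 7.75 in bound, 6.25 in unbound and 6.46 in total RNA. CDH1 and KIT thus followed the order of EPCAM, with the bound array brightest. GAL, at 5.33 in bound, 3.69 in unbound and 6.90 in total RNA, was 0.12 above background in unbound RNA. Its bound and unbound values lie under the 99th percentile of the background genes (5.97 and 4.47), while its total RNA value lies over it (5.03). Levels are not set against each other between genes, because probes differ in how strongly they bind.

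**Figure D1:**
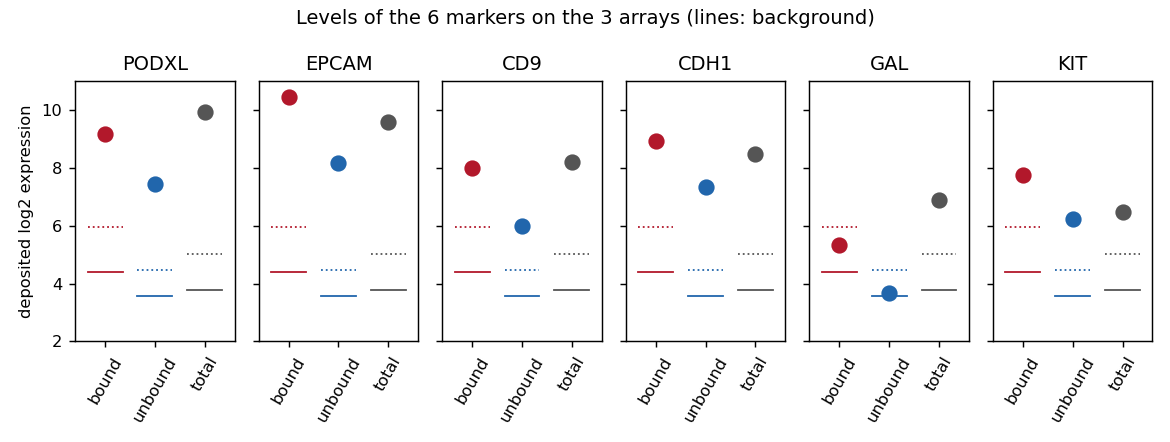
Deposited log2 expression of each marker (panels) on the polysome-bound, polysome-unbound and total RNA arrays, 1 point per array, with solid and dotted lines at the 95th and 99th percentiles of the background genes on that array. GAL in unbound RNA (3.69) sits next to the solid line (3.57), and all other points are clear of it.

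The arrays differ in overall brightness: medians over the 12057 genes past the level filter were 1.26 higher for bound than for unbound RNA, 1.03 higher for bound than for total RNA, and 0.23 lower for unbound than for total RNA. A relative difference is the log2 difference between 2 arrays minus the difference of these medians. All 6 markers passed the filter, a mean over the 3 arrays above 3.84.

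Bound RNA was set against unbound RNA to ask how far the marker mRNAs sit on polysomes. EPCAM had a relative difference of 1.02 (2.03-fold) on its brighter probe set, higher than 94.0% of all genes compared. CD9 had 0.742 (1.67-fold, above 87.6% of genes). On its other probe set EPCAM had 0.736, so that its place above CD9 rests on the choice of probe set. PODXL had 0.43, GAL 0.38, CDH1 0.31 and KIT 0.24, which exceeded 76.5%, 73.9%, 71.0% and 67.5% of genes. All 6 values were positive, with a median of 0.41 against -0.07 over the 12057 genes. The SD over these genes was 0.80, and PODXL, GAL, CDH1 and KIT lie within 1 SD of their median.

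EPCAM alone, 1 of 6, passed 2-fold toward bound RNA, as 6.36% of all genes compared did, and 0 markers passed it toward unbound RNA, as 9.91% of genes did. EPCAM's call rests on its brighter probe set, since 0.736 is under the line. As deposited, all 6 differences were between 1.51 (KIT) and 2.28 (EPCAM), so that 6 of 6 markers passed 2-fold toward bound RNA and 0 toward unbound RNA, but 61.4% of all genes compared then passed it toward bound and 1.56% toward unbound RNA. All 6 markers kept a positive sign with a lowess trend removed and after quantile normalization. The markers spanned 0.78, between EPCAM and KIT, with centred or deposited values, 0.97 with the trend removed and 1.13 after quantile normalization. With EPCAM's other probe set they spanned 0.50, between CD9 and KIT.

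**Figure D2:**
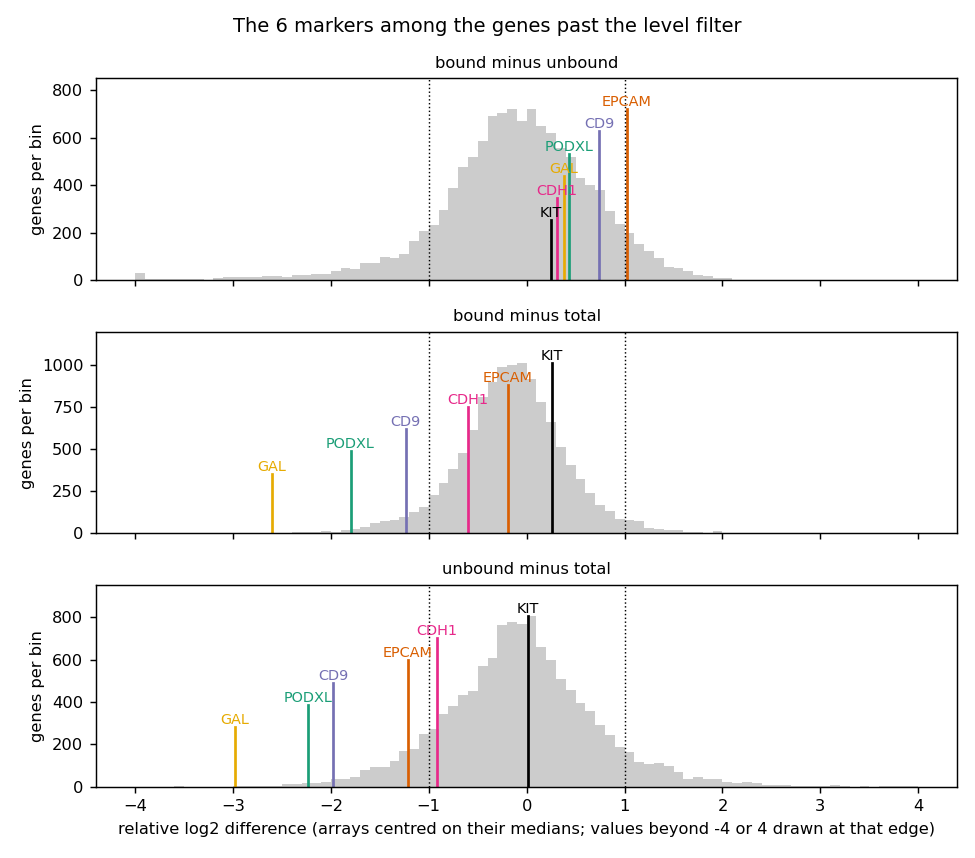
Histograms of the relative log2 difference over 12057 genes for bound minus unbound, bound minus total and unbound minus total, with a labelled line for each marker (line heights only separate the labels) and dotted lines at 2-fold. For bound minus unbound the markers lie from 0.24 (KIT) to 1.02 (EPCAM). Against total RNA they spread from GAL at -2.60 and -2.98 to KIT at 0.26 and 0.01.

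The relatives and partners of each marker were described next, from lists chosen for their known relation to it. Among the EPCAM proteases, relatives and signalling genes, 3 of 12 passed 2-fold toward bound and 0 toward unbound RNA, with a median relative difference of 0.14. The membrane serine protease ST14 (1.85) and the protease inhibitor SPINT2 (1.54) were highest, and nicastrin, NCSTN (1.03), a gamma-secretase subunit, also passed. APH1A (-0.48) and PSEN2 (-0.23), other subunits of the gamma-secretase that releases the EPCAM intracellular domain, were lowest. EPCAM itself exceeded 9 of the 12.

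Tetraspanins and CD9 partners lay mostly to the bound side, as CD9 did: 20 of 22 had a positive relative difference, 3 passed 2-fold and 0 did so toward unbound RNA, and the median was 0.51. The number past 2-fold was 5 with a lowess trend removed, 7 after quantile normalization and 22 as deposited. The shares of all genes past it toward bound RNA were then 6.38%, 10.8% and 61.4%. CD81 (1.54), a close relative of CD9, and TSPAN9 (1.33) were highest, with CD82 (1.20) the other past the line. TSPAN4 (-0.18) and TSPAN31 (-0.05) were lowest. CD9 exceeded 15 of the 22. The leukocyte tetraspanins CD37 and CD53 were at or below background on all 3 arrays.

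Junction partners of CDH1 lay on both sides, 6 positive and 6 negative. The nectin adaptor AFDN (1.21), NECTIN2 (1.17), the desmosomal plaque protein DSP (1.14) and the desmosomal cadherin DSG2 (1.01) passed 2-fold toward bound RNA, 4 of 12, and 0 did so toward unbound RNA. The catenins JUP (-0.44) and CTNNB1 (-0.34), which bind the cadherin tail, and CTNNA1 (-0.46), which links them to actin, had negative values, and NECTIN3 (-0.53) was lowest. As deposited the lowest of these was positive too, NECTIN3 at 0.74. CDH1 at 0.31 exceeded 6 of the 12, and the list's median was 0.22, or 0.50 with a lowess trend removed and 0.76 after quantile normalization. For comparison, N-cadherin, CDH2, had -0.16 and P-cadherin, CDH3, 0.38.

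Of 10 genes that repress CDH1 or mark the epithelial state and its loss, 0 passed 2-fold toward bound RNA and 2 toward unbound RNA, with a median of -0.26. The intermediate filament gene VIM had -2.03 and the repressor SNAI2 -1.14. As deposited these were -0.76 and 0.13, so the sign of SNAI2 depends on the scaling. ESRP2 (0.39), which directs epithelial splicing, and the E-protein TCF3 (0.37) were highest.

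PODXL's relatives and cytoplasmic linkers were all positive, 5 of 5, with a median of 0.59 and 0 past 2-fold. NHERF1 (0.98) and NHERF2 (0.78), the PDZ proteins that tie podocalyxin to ezrin, were highest, and the actin linkers MSN (0.22) and RDX (0.27) lowest. The related sialomucin PODXL2 had 0.59, and CD34 was at or below background on all 3 arrays. PODXL at 0.43 lay among them, above 2 and below 3.

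GAL has 5 list genes past the filter, with a median of 0.79. Carboxypeptidase E, CPE, which trims peptide hormones, had 1.99 and was the 1 gene past 2-fold, and the convertase chaperone SCG5 had 0.95. SCG3 (0.37), a granule protein, and GALR3 (0.02), a galanin receptor, were lowest, but both were at or below background in unbound RNA. With the 95th percentile as the floor they were, as deposited, at least 2.55-fold and at least 2.15-fold higher in bound RNA. On that scale the array medians alone differ by 1.26 log2 in the same direction. The receptors GALR1 and GALR2 were at or below background on every array.

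For KIT, 3 of 19 list genes passed 2-fold toward bound RNA and 1 toward unbound RNA, with a median of 0.29. The ubiquitin ligase CBL (1.38), which ends KIT signalling, and the adaptor GRB2 (1.37) were highest, and the exchange factor SOS1 (1.25) passed as well. The adaptor SHC1 (-1.10) and CBLB (-0.98) were lowest, and as deposited they were 0.16 and 0.29. The ligand KITLG had 0.35, and the class III receptors PDGFRA and PDGFRB had 0.10 and 0.53, around the 0.24 of KIT. The class III receptors FLT3 and CSF1R were at or below background on every array.

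Other surface proteins of pluripotent cells had a median relative difference of 0.37, close to the 0.41 of the 6 markers, with 4 of 30 past 2-fold toward bound RNA and 0 toward unbound RNA. The number toward bound RNA was 7 with a lowess trend removed, 10 after quantile normalization and 24 as deposited, where 6.38%, 10.8% and 61.4% of all genes passed. The receptor phosphatase PTPRZ1 (1.63) and the Nodal co-receptor CRIPTO (1.39) were highest, followed by the integrins ITGAV (1.31) and ITGB5 (1.25). CD44 (-0.94), the hyaluronan receptor, which was at or below background in bound RNA, and the arginine transporter SLC7A3 (-0.60) were lowest. Other secreted proteins had a median of 0.05, with 1 of 20 higher, IGFBP2 (1.30), and 0 lower. SFRP2 (0.80), a WNT inhibitor, was next, and the chemokine CXCL5 (-0.65) and TGFB1 (-0.51) were lowest. GAL exceeded 13 of these 20. The other measured genes of this list, FGF4, LEFTY1, GDF3, NODAL, CER1 and INHBA, were at or below background on every array.

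**Figure D3:**
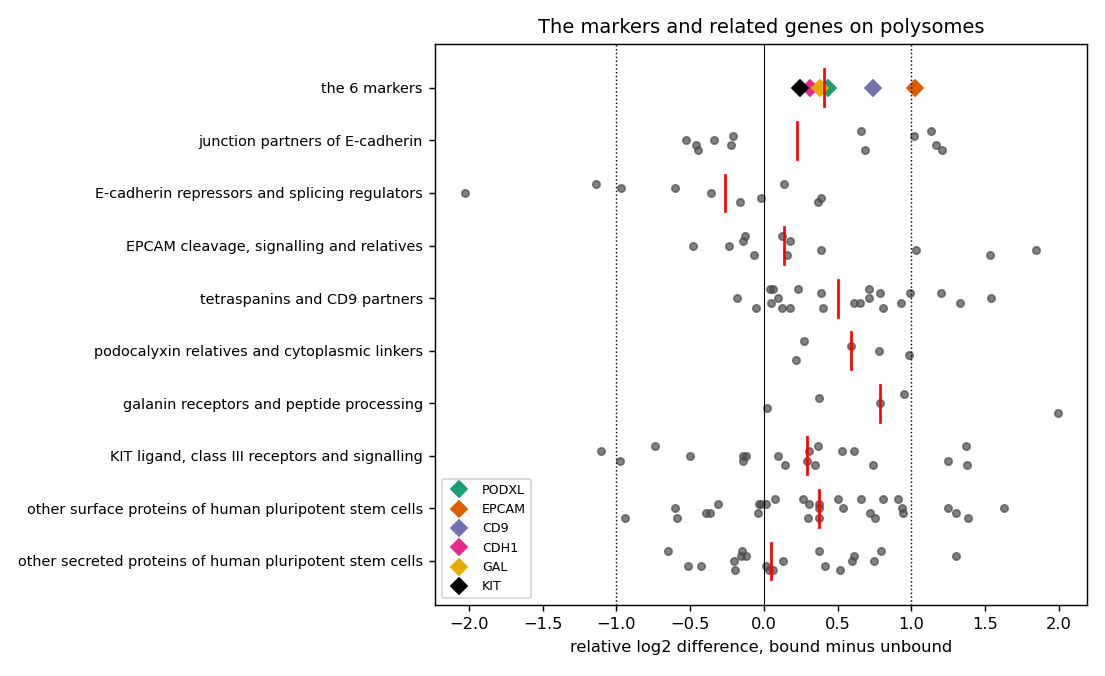
Relative log2 difference, bound minus unbound, of the 6 markers (diamonds) and of the list genes past the level filter (dots, 1 per gene), with a red bar at each median and dotted lines at 2-fold. The list medians run from -0.26 for E-cadherin repressors and splicing regulators to 0.79 for galanin receptors and peptide processing, and that of the markers is 0.41.

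Bound RNA was also set against total RNA. Here the markers spread much further. GAL had a relative difference of -2.60, a 6.07-fold lower relative level in bound RNA, and 29 of the 12057 genes were lower still. PODXL had -1.80 (3.48-fold lower, 109 genes lower still) and CD9 -1.24 (2.36-fold lower, above 3.75% of genes). CDH1 (-0.60), EPCAM (-0.19) and KIT (0.26) were inside 2-fold, and KIT exceeded 79.7% of all genes.

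Of the 6 markers, 3 were lower in bound RNA by 2-fold or more, as 6.43% of all genes compared were, and 0 were higher by as much, as 2.66% of genes were. Their median was -0.92, against -0.14 over all genes. As deposited, GAL (-1.57), PODXL (-0.77) and CD9 (-0.21) were negative and CDH1 (0.43), EPCAM (0.84) and KIT (1.29) positive. The sign thus turned with the scaling for CDH1 and EPCAM and held for the other 4, and as deposited GAL alone was at least 2-fold lower (0.572% of genes) and KIT alone at least 2-fold higher (40.1%). With the 99th percentile of background as the floor, GAL was at least 1.90-fold lower in bound than in total RNA as deposited.

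Unbound RNA was set against total RNA last. This comparison shares the total RNA array with the one before, and the bound and unbound differences are not independent of each other. GAL had -2.98 (7.90-fold lower, with 6 genes lower still), PODXL -2.23 (4.70-fold), CD9 -1.98 (3.94-fold) and EPCAM -1.21 (2.32-fold). CDH1 had -0.91 and KIT 0.01. So 4 of 6 markers were lower in unbound RNA by 2-fold or more, as 10.0% of all genes compared were, and 0 were higher by as much, as 8.08% of genes were.

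The median of the markers was -1.60, against -0.07 over all genes. EPCAM's call was lost with its other probe set (-0.89), after quantile normalization (-0.98) and with a lowess trend removed (-0.90). Each leaves 3 of 6 past the line, where 9.99%, 9.65% and 7.56% of all genes were lower by as much. As deposited all 6 were negative, from -3.21 (GAL) to -0.22 (KIT), with 5 lower by 2-fold or more (16.0% of genes) and 0 higher by as much (5.42%). With the 99th percentile of background as the floor GAL was at least 5.37-fold lower in unbound than in total RNA. Polysome-bound and polysome-unbound RNA on the one side and total RNA on the other were purified with different column kits. A difference of kit and one of source therefore cannot be told apart here. In bulk RNA, fewer cells that express a marker and less of its RNA per cell cannot be told apart either.

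Other surface and secreted proteins of pluripotent cells also lay mostly at lower relative levels in bound and in unbound RNA than in total RNA. In bound RNA 4 of 30 surface and 6 of 20 secreted proteins had a positive value, and in unbound RNA 2 and 5 did. Of 30 other surface proteins, 11 lay past 2-fold below total RNA in bound RNA (median -0.67) and 1 above it, CD47 (1.37). Of all genes compared 6.43% were lower and 2.66% higher by as much. In unbound RNA 15 were lower (median -1.001) and 0 higher, where 10.0% and 8.08% of all genes were. PODXL was below 24 of these 30 in the bound comparison and below 26 in the unbound one, while KIT was above 27 and 28. Of 20 other secreted proteins, 5 lay past 2-fold below total RNA in bound RNA and 2 above it, DKK1 (1.21) and BMP4 (1.07), with a median of -0.33. The 5 were the phosphoprotein SPP1 (-3.01), which alone lay below GAL, SFRP1 (-1.39), CXCL5 (-1.32), TGFB2 (-1.12) and CXCL12 (-1.11). In unbound RNA 5 were lower and 1 higher, DKK1 (1.41), with a median of -0.45. The shares of all genes for these counts are those given for the surface proteins.

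Within their lists CD9, PODXL and GAL stood toward the low end against total RNA, and CDH1, EPCAM and KIT did not in bound RNA. CD9 was below 20 of 22 tetraspanins and partners in bound RNA, above the integrins ITGA3 (-2.55) and ITGA6 (-1.52) only. PODXL was below all 5 of its relatives and linkers in both comparisons, and GAL below all 5 of its list. CDH1, below 6 and above 6 of its junction partners in bound RNA, was in their middle. EPCAM was above 5 and below 7 of its list in bound RNA, and above 1 and below 11 in unbound RNA. KIT was above 16 of 19 genes of its list in bound and above 12 in unbound RNA.

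Markers of other cell types also differed between the arrays, but not all in the same direction. Above background were, of 8 trophoblast and amnion markers, 7 in bound, 7 in unbound and 6 in total RNA, and their signal summed over the list was 7.21, 9.14 and 3.31 times the array's median gene in bound, unbound and total RNA. TFAP2A alone gave 2.79, 4.56 and 0.974 of these sums, and the others 4.42, 4.58 and 2.34. CGA was at or below background on all 3 arrays. Of 7 past the filter 2 exceeded total RNA by 2-fold in bound RNA, VTCN1 (1.59) and TFAP2A (1.52), and 3 did in unbound RNA. Of 7 endoderm markers, 7 were above background in bound, 6 in unbound and 6 in total RNA, with sums of 5.03, 2.997 and 1.72. The serum proteins TTR (3.22), APOA2 (2.82) and AFP (2.37) were the 3 that exceeded total RNA by 2-fold in bound RNA, but their total RNA values (3.96, 3.76 and 3.68) were all under the 99th percentile of background. With that percentile as the floor they were, as deposited, at least 9.088-fold, 6.003-fold and 4.14-fold higher in bound RNA. The medians of the bound and total RNA arrays differ by 1.03 log2 in the same direction on that scale.

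For the pluripotency markers the sums were 54.2 in bound, 63.1 in unbound and 90.4 in total RNA, and for 9 fibroblast markers, of which 7, 6 and 7 were above background, 14.95, 8.38 and 30.3. Neural markers, 3, 3 and 4 of 6 above background, had sums of 4.54, 5.34 and 4.25, with PAX6 (1.72) higher and NES (-1.74) lower in bound than in total RNA. Endothelial markers, 2 of 7 above background on each array (KDR and TEK), had 3.02, 2.66 and 8.28, with 2.11, 1.84 and 6.11 from KDR. The melanocyte list had 3.15, 5.10 and 12.9, of which PMEL alone gave 2.75, 4.51 and 12.3, so that the shift is that of 1 gene. Sums were 3.002, 3.56 and 3.15 for germ cell markers, with 2.30, 2.43 and 1.84 from TFAP2C. The mast cell and blood list had 0.548, 0.711 and 0.763, from genes at or below background apart from RUNX1 in bound RNA. The part of these shifts in the lower GAL, PODXL and CD9 values was not tested.

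**Figure D4:**
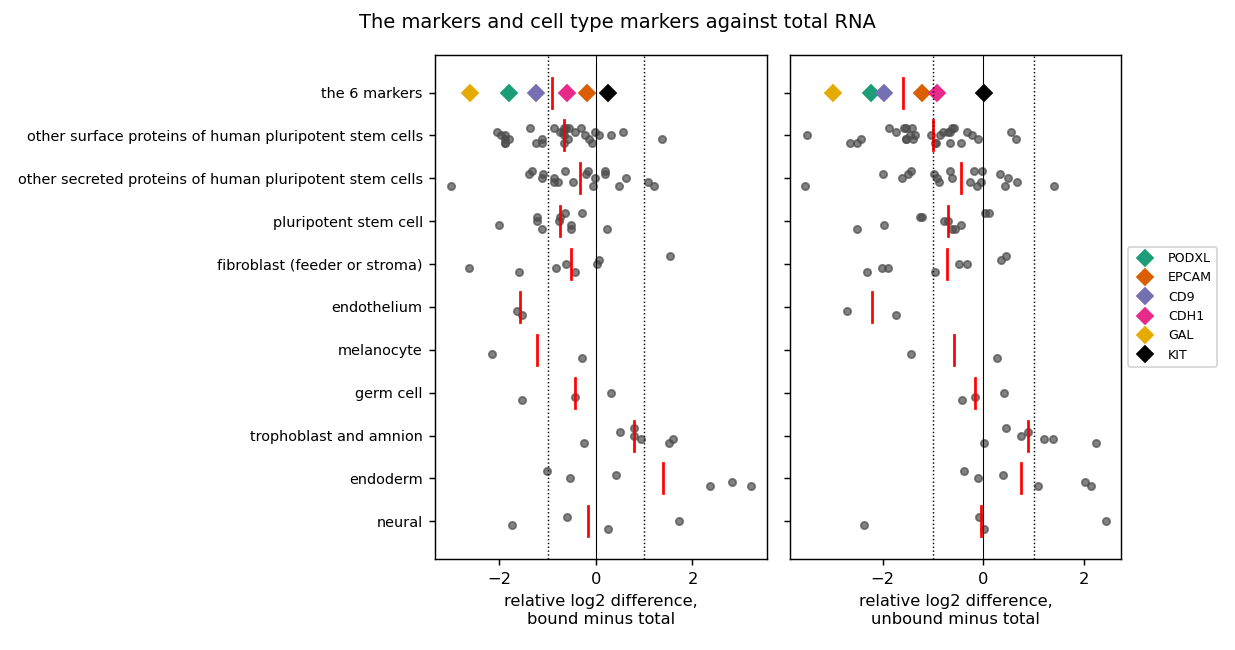
Relative log2 difference against total RNA for bound (left) and unbound RNA (right) of the 6 markers (diamonds) and of list genes past the level filter (dots), with red bars at the medians and dotted lines at 2-fold. Both panels share the total RNA array. The marker medians are -0.92 and -1.60, and those of trophoblast and amnion markers 0.79 and 0.89.

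The genes most like each marker were sought by the Euclidean distance over the 3 centred log2 values, which takes in level as well as difference, and 3 arrays give many genes a near match. PODXL was nearest to the collagen COL1A1 (distance 0.21), the topoisomerase TOP2A (0.24) and PARP1 (0.29). EPCAM was nearest to WDR82 (0.10), SELENOF (0.12) and YAP1 (0.25), and CD9 to ACAT2 (0.084), USP5 (0.15) and NOC2L (0.23). CDH1 was nearest to RNASEH2A (0.072), WARS1 (0.093) and SEPTIN7 (0.11), and KIT to SNX25 (0.069), MRTFB (0.072) and the cadherin CDH8 (0.073). GAL had no close match: ITGA3 (0.33), TM4SF18 (0.45) and ACTG2 (0.45) were nearest.

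**Figure D5:**
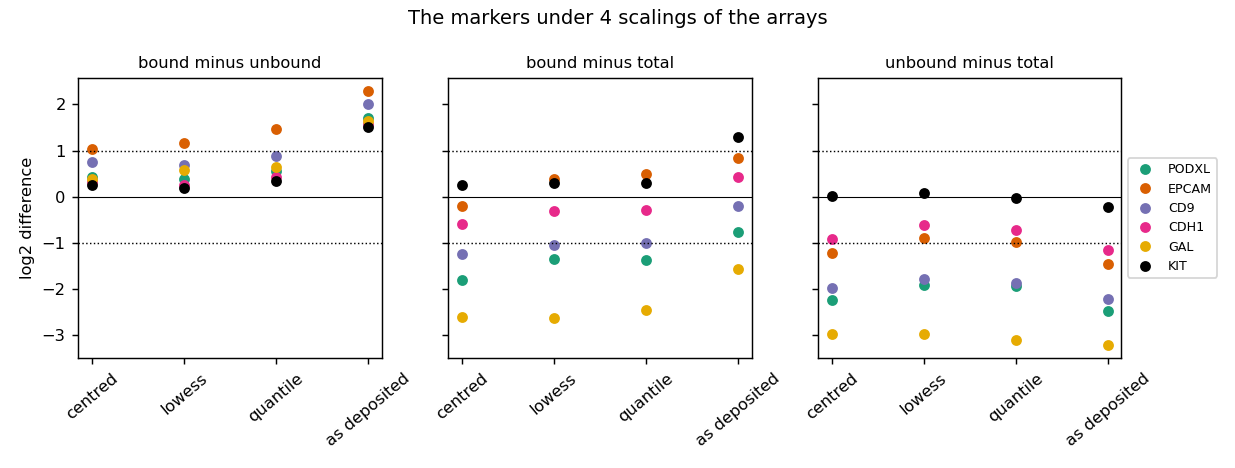
Log2 difference of each marker in the 3 comparisons with the arrays centred on their medians, with a lowess trend removed, after quantile normalization and as deposited, with dotted lines at 2-fold. For bound minus total, GAL stays between -2.62 and -1.57, and EPCAM crosses 0, between -0.19 and 0.84.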

How the data were processed

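Per the submitters' processing notes, the authors used Partek 6.5 and RMA and deposited 1 log2 value per probe set and array. The 3 columns differ in distribution, and the bound column has 7 decimals against 5, so the scaling between arrays is unknown and centring was used. Polysome separation, pooling and genome build are not given in the sources used here. Of the 33297 probe sets, 19460 list 1 gene symbol, 1754 several and 12083 are not listed, and 19429 gene IDs matched RefSeq (GRCh38.p14). Where a gene had several probe sets the one with the highest mean was kept. The level filter was the 95th percentile of background genes. Members and lists were chosen with earlier results of these data known. Named genes were the 6 markers, the 2 highest and 2 lowest of each list, list genes past 2-fold toward bound or unbound RNA where they were 5 or fewer, and 3 nearest genes per marker. Close relatives (such as PODXL2, CDH2, CDH3, KITLG, PDGFRA) and genes named as at background were picked after their values were seen. Against total RNA not every list gene past 2-fold is named. A planned comparison by protein length was not made. Annotated starts of PODXL, EPCAM, CDH1 and GAL were not used here. The scripts were tested on simulated data. The number of arrays, 3, limits the precision. Tools were pandas 2.3.3 and numpy 2.4.6 for tables, statsmodels 0.14.6 for lowess and matplotlib 3.10.9 for figures, under Python 3.11.15.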

Additional observations from a re-analysis of the deposited data

How the results depend on the processing

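Alternatives were values as deposited, quantile normalization, removal of a lowess trend (span 0.3), no filter or one at the 99th percentile of background, the mean of all probe sets, and thresholds of 1.5-fold and 3-fold. The other EPCAM probe set was added after the data were seen. For bound minus unbound, 1 of 6 markers was apart, toward bound RNA, as were 6.36% of all genes compared. The count was 6 as deposited (61.4% of genes), 2 at 1.5-fold (17.7%) and 0 at 3-fold (0.846%). It was 0 with the mean (6.43%) or the other EPCAM probe set (6.35%), where EPCAM fell under the line. For bound minus total, 3 were lower (6.43% of genes) and 0 higher (2.66%). The number lower became 2 after quantile normalization (3.39%), 4 at 1.5-fold (18.5%) and 2 at 3-fold (1.53%). As deposited 1 was lower (GAL, 0.572%) and 1 higher (KIT, 40.1%). For unbound minus total, 3 to 5 were lower and 0 higher under every alternative. The shares of all genes ran from 2.62% at 3-fold to 22.3% at 1.5-fold for lower, and from 2.56% to 17.4% for higher. Bound minus unbound stayed positive for all 6 markers under every alternative. As deposited, which adds the offset of 1.26 to each value, the list medians were 1.48 for junction partners, 1.001 for E-cadherin repressors, 1.40 for the EPCAM list, 1.77 for tetraspanins, 1.85 for podocalyxin relatives, 2.05 for the galanin list, 1.55 for the KIT list, 1.63 for other surface and 1.31 for other secreted proteins, and of the 14 negative genes among each list's 2 highest and 2 lowest, 13 turned positive, SNAI2 (0.13) and SHC1 (0.16) among them, VIM (-0.76) being the exception. After quantile normalization each list's median lay further toward bound RNA, that of junction partners at 0.76. All genes compared shifted that way too: 10.8% then passed 2-fold toward bound RNA (6.36% before) and 7.27% toward unbound RNA (9.91% before). With no filter the galanin list, then 11 genes, had -0.16. With the 99th percentile as background, markers above it in total RNA were 4 fibroblast (7 before), 1 melanocyte (2), 3 trophoblast and amnion (6) and 1 endoderm (6). No paired analysis was possible because each group has 1 array. Signal over background limits GAL most.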
